A study of Capra hircus with 9 samples.

Results

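The expression of 9 skeletal muscle genes was followed in goat submandibular gland: ACTA1, MYH1, MYH2, CKM, TNNT3, MYLPF, TTN, NEB and MB. They were chosen by name as genes of the contractile apparatus and metabolism of muscle fibres, and all 9 were found among the 21684 genes of the table. MYH1 and MYH2 carry no symbol in the table and were found by their product, under LOC102181426 and LOC102181155. A further gene with a myosin-1 product, LOC106502098, was not counted as MYH1, and it had from 5.70 to 36.2 counts in every library.

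The libraries were made from whole submandibular glands of healthy female Lubo goats, with 3 goats of 1 month, 3 of 12 months and 3 of 24 months and 1 library per goat. Husbandry did not differ between the ages, feed was unrestricted until a fast before slaughter, and xylazine was given as anaesthetic. Ribosomal RNA was removed and the libraries kept strand information. The study asked how gene expression in the gland differs between the ages, and no treatment or genotype separates the groups. The tissue is bulk, so that fewer muscle fibres and less RNA per fibre cannot be told apart, and the submandibular gland lies beside muscles of the floor of the mouth.

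In a skeletal muscle fibre, thick filaments of myosin pull on thin filaments of actin, and calcium bound to the troponin complex starts the pull. Titin holds the thick filaments in place and acts as a spring, and nebulin lies along the thin filaments. Muscle creatine kinase restores ATP during contraction, and myoglobin stores oxygen. Adult fibres are classed as slow or fast by their myosin heavy chain.

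Total expected counts were from 11546808 to 24901065 per library. Levels are given as CPM, a gene's count per 1000000 counts of the library, with library sizes set by TMM so that most genes keep their level. The value that 3 counts give, used as the floor of detection, was from 0.145 to 0.190 CPM and covers counting error only. CPM are not divided by transcript length, so levels were compared between libraries and not between genes.

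Before the muscle genes, 2 libraries need to be named. The 1-month replicate 2 had the highest summed CPM of 9 thymus genes (5465, against 2108 and 907 in the other 1-month libraries and from 1.24 to 3.32 in the older ones) and the lowest sum of 10 salivary epithelium genes (499, against 3069 and 2522 at 1 month and from 21089.7 to 36553 in the older libraries). AQP5, the water channel of acinar cells, had 9 counts there. Its correlation across genes with the other 1-month libraries was 0.823 and 0.810, against 0.951 between those libraries. The 12-month replicate 2 resembled the other 12-month libraries across genes (0.973 and 0.976) and carried the high muscle values described next. Results are given with and without these libraries.

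Muscle RNA was uneven among goats of one age. The summed CPM of the 9 genes was 286, 95.6 and 122 in the 1-month replicates 1, 2 and 3, it was 89.1, 404 and 84.9 in the 12-month replicates, and it was 63.5, 20.1 and 30.9 in the 24-month replicates. TTN and NEB made up from 71.8% to 97.4% of these sums. Without them the sums were 49.6, 6.20 and 3.18 at 1 month, 3.38, 89.8 and 3.62 at 12 months and 9.07, 5.65 and 7.64 at 24 months. The 12-month replicate 2 and the 1-month replicate 1 then stood above the other 7 libraries, and together they held 78.3% of the CPM of these 7 genes over all libraries. Among the 6 libraries of 12 and 24 months, replicate 2 of 12 months was the highest for 8 of the 9 genes, all except MB. That held for 16.1% of all genes with a count in these libraries. It was at least 5-fold above each other adult library for 6 of the 9 genes, compared with 0.535% of all genes. Among the 1-month libraries, replicate 1 was the highest for 9 of the 9, compared with 31.6% of all genes. Of 62 other muscle genes described below with a count at 1 month, 32 (51.6%) were highest in replicate 1 and 23 (37.1%) in replicate 2. Of all genes, 31.6% were highest in replicate 1 and 40.4% in replicate 2.

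**Figure D1:**
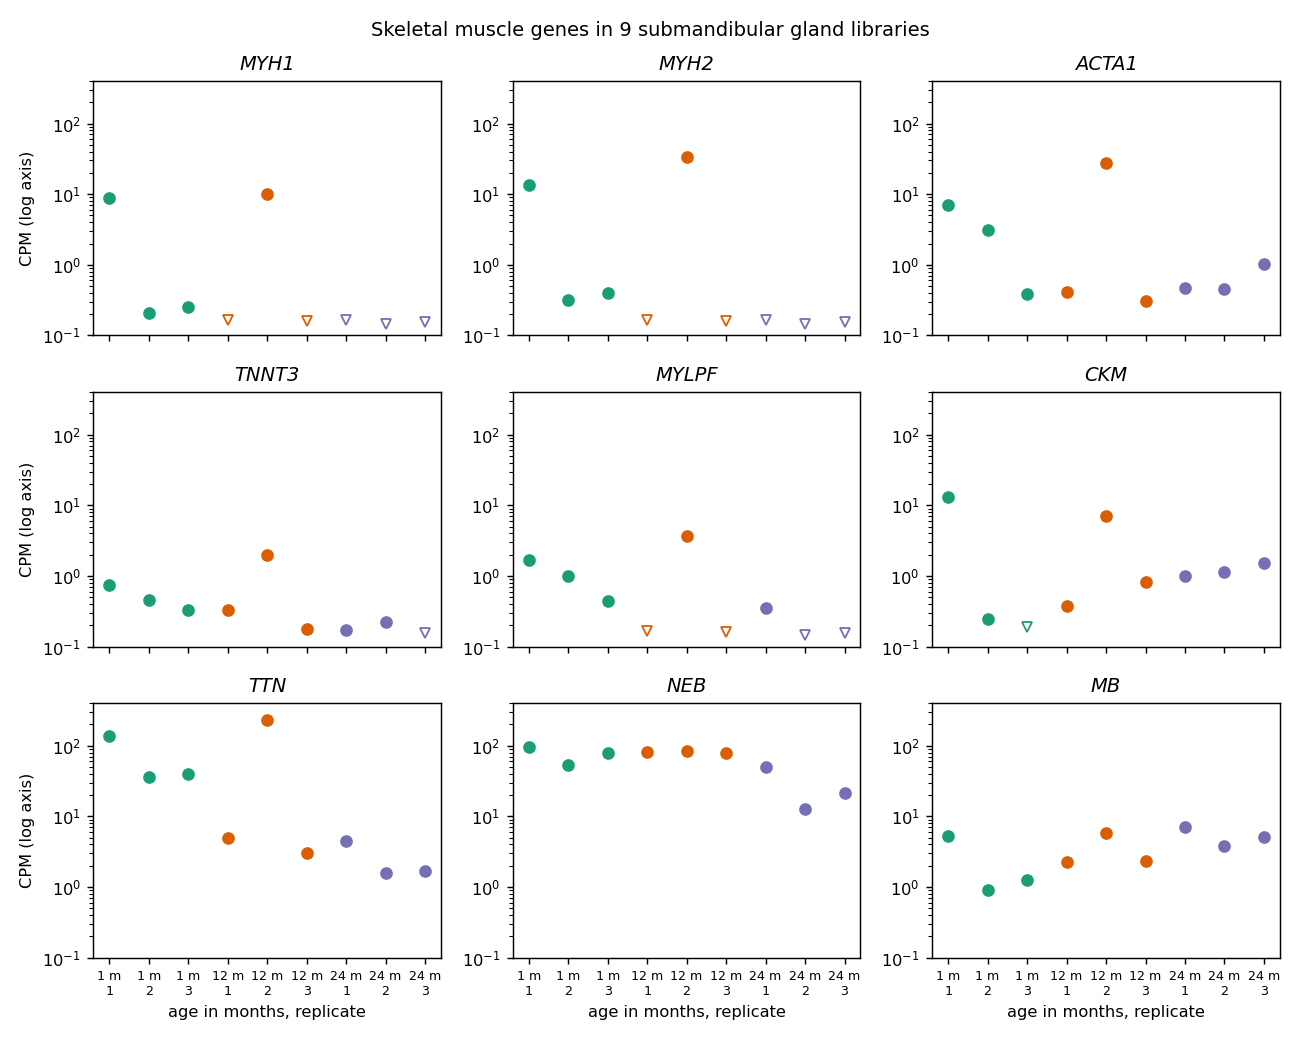
CPM of each of the 9 genes on a log axis in the 9 libraries, by age and replicate number; filled circles are values and open triangles mark libraries under the floor of 3 counts, drawn at the floor. MYH1 and MYH2 sat at 8.79 CPM or more in the 1-month replicate 1 and the 12-month replicate 2 and at 0.404 CPM or less elsewhere, whereas NEB and MB did not show this pattern.

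MYH2 encodes the heavy chain of fast oxidative (type IIA) fibres. Its CPM was 13.4, 0.317 and 0.404 at 1 month, 0, 33.4 and 0 at 12 months, and 0 in each 24-month library. These values came from 213, 6.07 and 6.38 expected counts at 1 month and 610 in the 12-month replicate 2. Of the CPM of MYH2 over all 9 libraries, 98.5% lay in the 12-month replicate 2 and the 1-month replicate 1.

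MYH1, the heavy chain of fast type IIX fibres, had CPM of 8.79, 0.211 and 0.250 at 1 month, 0, 9.99 and 0 at 12 months, and 0 in each 24-month library. The same 2 libraries held 97.6% of it. MYH1 and MYH2 were above the floor in every 1-month library and in a single library of the 6 older goats. MYH4, MYH1, MYH2 and MYH3 follow each other among the protein-coding genes of the RefSeq annotation and are near-identical in parts, so that the split of reads between them is uncertain.

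Within the 12-month replicate 2, MYH2 made up 62.4% (95% exact binomial interval 59.3 to 65.5) of the 977 counts of 6 myosin heavy chain genes, MYH1 18.6% (16.2 to 21.2) and MYH7, the slow heavy chain, 16.1% (13.8 to 18.5). In the 1-month replicate 1, MYH2 made up 51.0% (46.1 to 55.8) of 418 counts, MYH1 33.5% (29.0 to 38.2) and MYH7 4.78% (2.95 to 7.29). The slow share was higher and the MYH1 share lower in the older goat, with intervals that do not overlap. The intervals cover counting error only, and each library is 1 goat, so that the ages were not compared by these shares. MYH3, the embryonic heavy chain, made up 5.74% (3.71 to 8.42) in the 1-month library and 0.819% (0.354 to 1.61) in the 12-month library.

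ACTA1 encodes the actin of skeletal thin filaments. Its CPM was 6.92, 3.07 and 0.389 at 1 month, 0.412, 27.9 and 0.306 at 12 months, and 0.465, 0.452 and 1.03 at 24 months. The 12-month replicate 2 was 27.0 times the next highest adult library, and every library was above the floor. TNNT3, the fast form of troponin T, had CPM of 0.740, 0.458 and 0.333 at 1 month, 0.330, 1.98 and 0.175 at 12 months, and 0.174, 0.226 and 0.0516 at 24 months. Its highest count was 36, and most libraries were close to the floor.

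MYLPF, the regulatory light chain of fast myosin, had CPM of 1.66, 0.987 and 0.445 at 1 month, 0, 3.68 and 0 at 12 months, and 0.348, 0 and 0 at 24 months. All 3 kids were above the floor and 4 of the 6 older goats were at 0.

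TTN encodes titin. Its CPM was 139, 36.5 and 40.0 at 1 month, 4.95, 231 and 3.01 at 12 months, and 4.48, 1.58 and 1.70 at 24 months. The 12-month replicate 2 was 46.7 times the next highest adult library. Apart from that library, each of the 3 kids was above each of the older goats. The 1-month replicates 2 and 3, which had 6.20 and 3.18 CPM in the sum of the 7 genes other than TTN and NEB, still had TTN at 36.5 and 40.0 CPM.

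NEB encodes nebulin. Its CPM was 96.9, 52.9 and 78.4 at 1 month, 80.8, 83.6 and 78.3 at 12 months, and 50, 12.8 and 21.6 at 24 months. The 12-month replicate 2 was 1.03 times the next highest adult library, so that NEB did not share the excess of the other filament genes there. All 3 libraries of 24 months lay below all 6 of the younger ages.

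CKM encodes muscle creatine kinase. Its CPM was 12.9, 0.247 and 0.111 at 1 month, 0.371, 7.04 and 0.830 at 12 months, and 0.988, 1.13 and 1.5 at 24 months. The 1-month replicate 1 was the highest library and the 1-month replicate 3 was under the floor, with 2 counts. MB, which encodes myoglobin, had CPM of 5.21, 0.916 and 1.25 at 1 month, 2.27, 5.83 and 2.31 at 12 months, and 7.09, 3.84 and 5.06 at 24 months. MB was highest in the 24-month replicate 1, and the 12-month replicate 2 was at 0.822 of that value.

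The mean CPM ran from 12 months over 1 month to 24 months for 7 of the 9 genes, and the medians gave that order for 1 gene, NEB. By medians, 1 month was first, 12 months next and 24 months last for TNNT3 and TTN, and for MYH1, MYH2 and MYLPF 1 month was first with both older ages at 0. The SD of the 12-month group exceeded its mean for ACTA1 (9.53 ± 15.9, n = 3), MYH1 (3.33 ± 5.77), MYH2 (11.1 ± 19.3), CKM (2.75 ± 3.72), TNNT3 (0.828 ± 1.000), MYLPF (1.23 ± 2.13) and TTN (79.7 ± 131). It did not for NEB (80.9 ± 2.66) and MB (3.47 ± 2.04). At 24 months the means were 0.650 ± 0.331 for ACTA1, 2.59 ± 1.64 for TTN, 28.1 ± 19.4 for NEB, 1.20 ± 0.262 for CKM and 5.33 ± 1.64 for MB.

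The 12-month and 1-month goats were compared with edgeR's quasi-likelihood test over 14898 genes, and a gene was called where its Benjamini-Hochberg adjusted p was below 0.05 and its log2 fold change beyond 2 in size. No member was called, whereas 11.7% of all genes tested were (2.17% higher and 9.54% lower at 12 months). Of the 9 genes, 6 passed the filter on low counts, and none of them had an unadjusted p under 0.05 (37.8% of all genes tested did). None was called by edgeR's exact test. DESeq2's Wald test gave no adjusted p for CKM and TTN, which it therefore could not call, and it called none of the other fitted members. The groups overlapped for all 9 genes, whereas 26.6% of the genes tested lay wholly higher and 27.0% wholly lower at 12 months. The median log2 fold change of the 6 was 0.25, compared with -0.02 over all genes tested. ACTA1 had a log2 fold change of 1.52 (SE 1.71, adjusted p = 0.533), and TTN had 0.22 (SE 1.51, adjusted p = 0.925). NEB had 0.16 (SE 0.277, adjusted p = 0.694), the smallest standard error among the 6. With library totals in place of TMM every fold change of this comparison would shift by -0.42 (log2), which would put MYLPF, TTN and NEB below 0.

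Without the 12-month replicate 2, the log2 fold changes turned to -3.20 for ACTA1 (edgeR adjusted p = 0.193), -7.18 for MYLPF (adjusted p = 0.0829) and -4.11 for TTN (adjusted p = 0.0712). MYLPF had 0 counts in the 12-month libraries that were left. It passed the filter through the 1-month libraries and could only come out lower, so that the size of its fold change is not a measure. No member was called in that fit, in which 64 genes (0.417%) were called in all. Without the 1-month replicate 2 as well, TTN was called lower at 12 months, with a log2 fold change of -4.49 and an edgeR adjusted p of 0.0150, in a fit that called 1666 genes (11.1% of those tested). CKM turned from -0.61 to 3.76 without the 1-month replicate 1 (adjusted p = 0.144). The direction of these genes between 1 and 12 months thus rested on single goats.

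**Figure D2:**
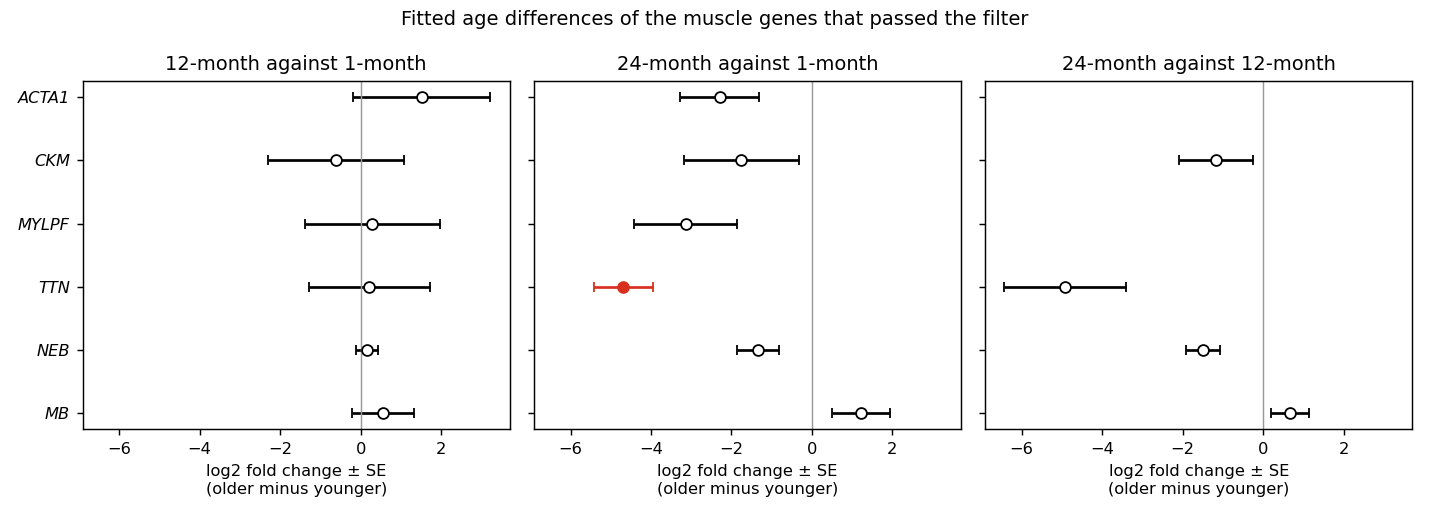
Log2 fold change (older minus younger) from edgeR for the members that passed the filter in each of the 3 pairs of ages. The standard error was derived from the fold change and its F statistic. The filled red point is the gene called and open points are genes not called. TTN at 24 months against 1 month was the only one called, at -4.69, and the standard errors for ACTA1, CKM, MYLPF and TTN at 12 months against 1 month were all 1.51 or more.

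TTN fell by 4.69 on the log2 scale between 1 and 24 months (SE 0.734, edgeR adjusted p = 0.00750), from a mean of 71.9 ± 58.3 to 2.59 ± 1.64 CPM (n = 3 each), 27.8-fold lower. It was the 1 member called of 6 that passed the filter. In this comparison 13.4% of 14968 genes were called. Of all genes tested, 9.17% were called lower and 4.25% higher at 24 months. The fold stood at -3.79 without the 1-month replicate 1 (adjusted p = 0.00937), in a fit that called 12.1% of the genes tested. It stood at -3.84 with the 1-month replicate 3 as the only kid. That fit holds no spread between kids, and the library is assumed to vary like the others. Over the alternatives it ranged from -3.79 to -6.68 with adjusted p from 1.31e-10 to 0.0557, the highest without the 24-month replicate 3, where the call was lost. With single transcripts tested in place of gene sums, no TTN transcript was called and 1 NEB transcript, XM_018062997.1, was. That transcript had 0 counts in each 24-month library, so it passed the filter through the 1-month libraries and could only come out lower. The 1-month libraries also carried the thymus genes (from 907 to 5465 summed CPM), of which 8 of 9 were called lower at 24 months, and lower salivary genes, and their part in the TTN difference was not tested.

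The other fitted members of this comparison were not called. MYLPF had a log2 fold change of -3.14 (SE 1.29, edgeR adjusted p = 0.126), ACTA1 -2.29 (SE 0.986, adjusted p = 0.141), CKM -1.75 (adjusted p = 0.419), NEB -1.34 (SE 0.521, adjusted p = 0.110) and MB 1.22 (adjusted p = 0.267). At an unadjusted p, 4 of the 6 were under 0.05, as were 34.3% of all genes tested, and the median was -2.02, compared with -0.01 over all genes tested. The median covers only members that passed the filter. MYLPF, with 6.42, 0 and 0 counts at 24 months, passed it through the 1-month libraries. MYH1, MYH2 and TNNT3 did not pass the filter. With 24-month libraries at 0, the 1-month mean of MYH1 was at least 20.0-fold and that of MYH2 at least 30.5-fold above the floor of 3 counts per library, both carried by the 1-month replicate 1. All 24-month values lay below all 1-month values for 6 of the 9 genes (MYH1, MYH2, TNNT3, MYLPF, TTN and NEB), and this separation in the same direction held for 23.5% of the genes tested. No member lay wholly higher at 24 months, as 20.2% of the genes did. Of the 6, MYH1, MYH2 and TNNT3 are outside that background, which counts genes that passed the filter. Each had an exact two-sided permutation p of 0.1, the smallest that 3 against 3 goats allow.

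CKM changed direction with 1 library: its log2 fold change was 2.65 without the 1-month replicate 1 (edgeR adjusted p = 0.124). Without the 1-month replicates 1 and 2, which leaves 1 kid, ACTA1 had 0.88.

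Between 12 and 24 months no gene of 14297 was called by the quasi-likelihood test (0%), while 1559 (10.9%) had an unadjusted p under 0.05, DESeq2's Wald test called 13 and edgeR's exact test 16. Of the 9 members 4 passed the filter. TTN had a log2 fold change of -4.92 (SE 1.51, edgeR adjusted p = 0.429), which went to -0.57 without the 12-month replicate 2. NEB had -1.49 (SE 0.425, adjusted p = 0.429), and it was -1.46 without the same library. NEB and TTN were the 2 members with an unadjusted p under 0.05. NEB was also the only member whose groups did not overlap, lower at 24 months, as were 7.56% of the genes tested, with 7.93% wholly higher. Without the 24-month replicate 1, whose NEB level was the highest of its age, NEB was called (-2.20, adjusted p = 0.00933), as were 172 genes in all (1.18%). CKM had -1.17 (adjusted p = 0.520) and turned to 0.97 without the 12-month replicate 2, and MB had 0.66 (adjusted p = 0.489).

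The table lists single transcripts, and these separated the libraries further. RSEM estimates how reads are divided between transcripts that share sequence, so a value of 0 for 1 transcript can be a choice of the estimate. Of 2 CKM transcripts, XM_005692636.2 held 206, 4.72 and 1.75 counts at 1 month and 128 in the 12-month replicate 2, and was at 0 in the other 5 libraries. XM_005692637.3 was at 0 in those 4 and held 6.70, 15.5, 18.2, 23.4 and 29.0 counts in the other 5. No library had counts in both.

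NEB had 24 transcripts in the table, 14 with a count. The newly assembled TCONS_00006460 held from 53.1% to 100% of NEB. Its CPM was 66.2, 28.1 and 51.9 at 1 month, 67.2, 53.3 and 65.9 at 12 months, and 46.2, 12.8 and 20.7 at 24 months. It was thus no higher in the 12-month replicate 2 than in its neighbours. The 23 known NEB transcripts summed to 30.6, 24.8 and 26.5 CPM at 1 month, 13.6, 30.3 and 12.4 at 12 months, and 3.74, 0 and 0.903 at 24 months. In the known transcripts the 12-month replicate 2 was the highest adult library. Among them, 5 had over 3 counts in the 12-month replicate 2, the 1-month replicate 1 or both and in no other library (3 of them in both), with summed counts of 500 and 309 and at most 0.0400 in any other library. The known transcript XM_018062997.1, called lower at 24 months, had 122, 224 and 169 counts at 1 month, 208, 52.2 and 165 at 12 months and 0 in each 24-month library, and so was lowest of the younger goats in the 12-month replicate 2. With 0 counts at 24 months it could only be called lower, and such a 0 can be a choice of the estimate.

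TTN was listed with 2 known and 3 newly assembled transcripts. The known ones had CPM of 8.22, 1.89 and 2.02 at 1 month, 0.312, 19.7 and 0.216 at 12 months, and 0, 0 and 0.0918 at 24 months. Of these, XM_018065217.1 had counts in the same pair of libraries only, 27 in the 1-month replicate 1 and 324 in the 12-month replicate 2. TCONS_00006849 made up 77.2% of TTN (75.9 to 78.4) in the 12-month replicate 2 and 31.9% (30.0 to 33.9) in the 1-month replicate 1, 13.7% (11.2 to 16.4) in the 1-month replicate 2 and 0 of 631 counts in the 1-month replicate 3. TCONS_00006850 made up 44.1%, 75.7% and 87.5% in the 1-month replicates and 93.7% and 92.8% in the 12-month replicates 1 and 3, and was at 0 in the 12-month replicate 2. The 24-month libraries had few TTN counts (82, 33 and 33), so that these shares were imprecise there.

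**Figure D3:**
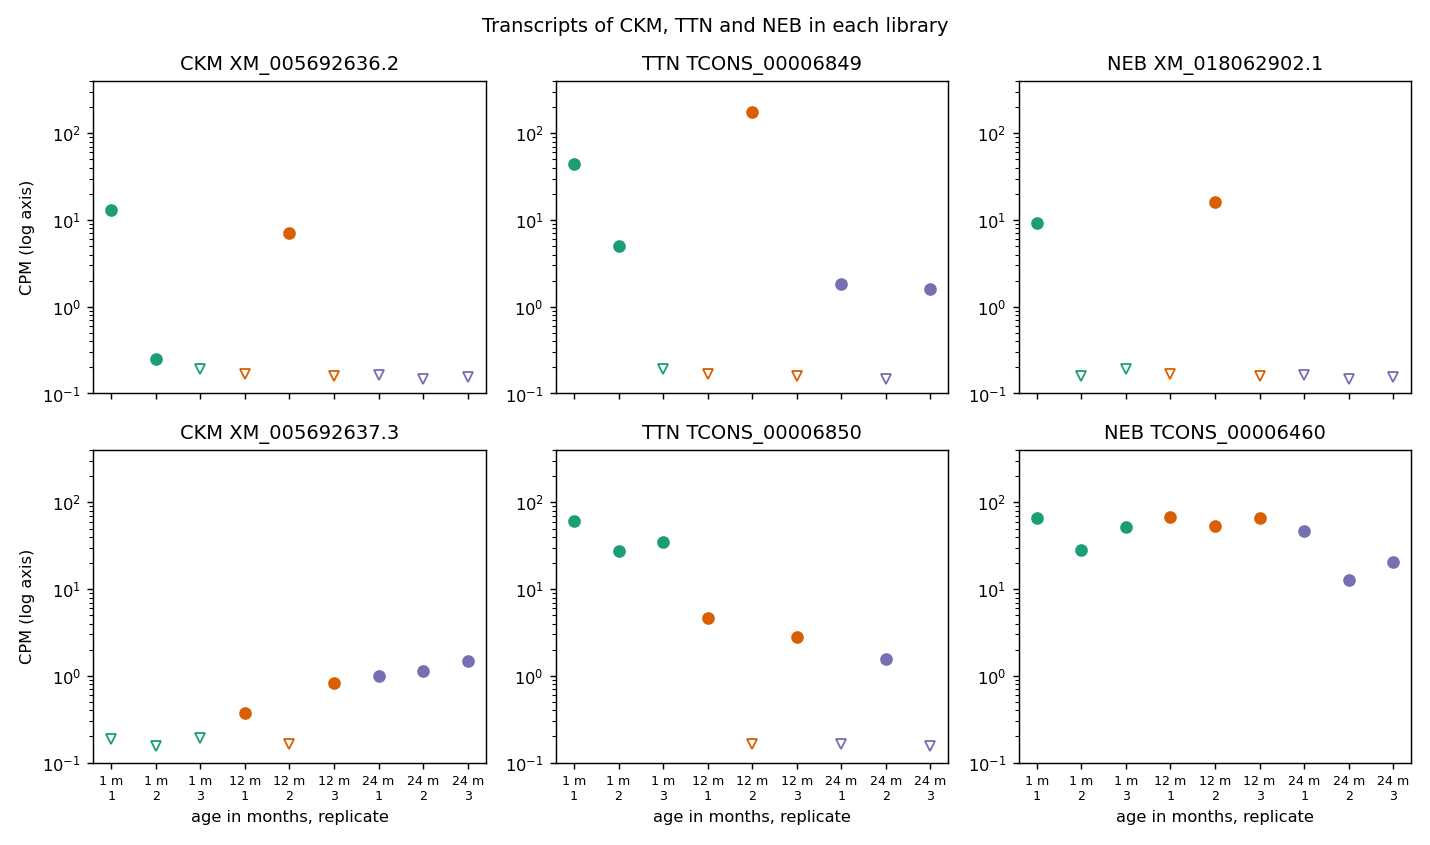
CPM on a log axis of 2 transcripts each of CKM, TTN and NEB in the 9 libraries, with open triangles for libraries under the floor of 3 counts. In the upper row the 1-month replicate 1 and the 12-month replicate 2 are the highest libraries of each transcript, and in the lower row they do not stand above the rest together.

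Other genes of muscle fibres were taken from 8 lists of 65 genes: fast fibre, slow fibre, developmental myosin, Z disc and M band, excitation and calcium release, neuromuscular junction, energy metabolism and myogenic regulators. Of 58 with a count in the older goats, 39 (67.2%) were highest in the 12-month replicate 2, compared with 16.1% of all genes. At least 5-fold above each other adult library were 15 (25.9%), compared with 0.535% of all genes. By list, this 5-fold excess was found for 4 of 9 fast fibre genes, 4 of 9 slow fibre genes, 2 of 2 developmental myosins, 4 of 15 Z disc and M band genes and 1 of 9 genes of calcium release. It was found for none of 9 energy metabolism genes, 3 neuromuscular junction genes and 2 myogenic regulators. For the developmental myosins MYH3 and MYH8 the excess rested on 8.04 and 8.03 counts, and the split of reads between myosin genes is uncertain. MYL1, the essential light chain of fast myosin, had 65.4, 13.5 and 10.5 counts at 1 month and 166 in the 12-month replicate 2, and was at 0 in the 5 other adult libraries. ATP2A1, the calcium pump of fast fibres, had CPM of 5.29, 1.37 and 0.278 at 1 month, 0, 7.86 and 0.175 at 12 months, and 0, 0 and 0.258 at 24 months. RYR1, the calcium release channel, was at 16.3 CPM in the 12-month replicate 2 and from 6.16 to 11.8 CPM in the other adult libraries.

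Of 6 regulators of myogenesis, 5 were at or near 0. MYOD1 had at most 1 count in any library, MYF5 was at 0 in all 9, PAX7 had at most 8.76, MYOG at most 8.09 and MYF6 at most 4.13 counts, each in a 1-month library. The exception was MSTN, myostatin, which had 28.9, 0 and 22.8 counts at 1 month, 42.4, 65.2 and 64.6 at 12 months, and 56.8, 49.1 and 24.0 at 24 months. CHRND, the delta subunit of the muscle acetylcholine receptor, was at 0 in all libraries. Of 6 cardiac genes, NPPB was at 0 in all libraries, NPPA had at most 1.35 counts and MYBPC3 at most 6.74. MYH6, the alpha heavy chain of heart, had 28.4, 100.3 and 22.1 counts in the kids and at most 10.0 in the older goats. It was called lower at 12 months, a comparison in which no gene was called without the 12-month replicate 1, and its count is uncertain because MYH7 is near-identical in sequence. TNNI3, cardiac troponin I, had from 17.1 to 57.3 counts in the older goats and at most 11.4 in the kids, and TNNT2 had at most 18.9 counts in any library.

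Genes of other tissues did not all move with the muscle genes. None of 8 smooth muscle and myoepithelium genes and none of 5 peripheral nerve genes were highest among adult libraries in the 12-month replicate 2. The same held for 1 of 8 thymus genes, 1 of 10 salivary epithelium genes and 1 of 4 cardiac genes. Over all genes the share was 16.1%, and counts from lists this short cannot be told from it. The smooth muscle sum in the 12-month replicate 2 was 1022 CPM, within the 825 to 1169 CPM of the other adult libraries. Of 7 adipocyte genes, 5 (71.4%) were highest there, none at least 5-fold. ADIPOQ, the adipocyte hormone adiponectin, was at 64.0 CPM there and from 3.28 to 28.6 CPM in the other adult libraries, and at 86.4, 2.54 and 177 CPM at 1 month. The part of other tissues in the muscle values was not tested.

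**Figure D4:**
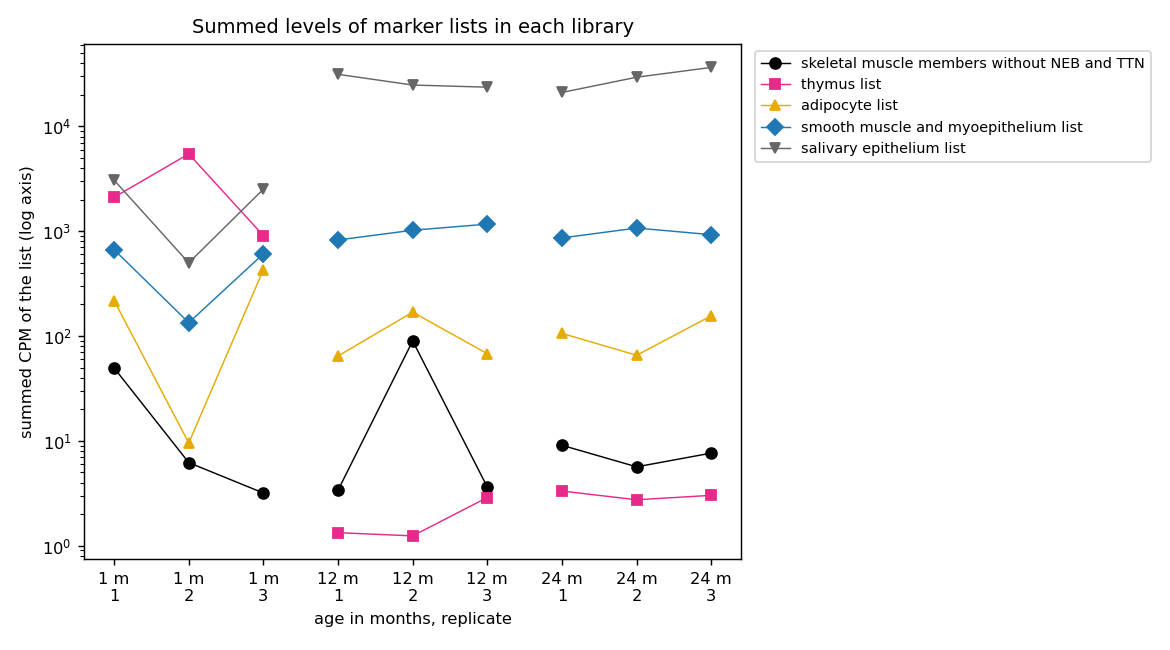
Summed CPM on a log axis of the 7 members other than NEB and TTN and of 4 marker lists in each library, with lines joining the 3 replicates of an age for reading only. The muscle sum peaks at 89.8 CPM in the 12-month replicate 2, where the smooth muscle sum stays within the range of the other adult libraries, and the thymus sum peaks at 5465 CPM in the 1-month replicate 2.

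The 8 lists were also read in the age comparisons. Between 1 and 12 months, 34 of the 65 genes were tested, of which 3 were called higher at 12 months (KLHL40, CHRNE and FBP2) and 1 lower (MYBPC2), with a median log2 fold change of 0.36. Over all genes tested 11.7% were called, so that 4 of 34 is near the background. With any 12-month library left out, none of the 4 was called. Between 1 and 24 months, 31 were tested, with a median log2 fold change of 0.07. Of these, 6 were called lower (MYL1, ACTN3, MYBPC2, MYH7, MYH3 and MYH8) and 4 higher (KLHL40, KLHL41, CHRNE and FBP2). Over all genes tested 13.4% were called. MYL1, MYH7 and MYH8 had 0 counts in each 24-month library and MYH3 at most 1. They passed the filter through the 1-month libraries and could only come out lower. Calls changed with single goats left out: MYBPC2 was the 1 gene called without the 24-month replicate 2, and it and KLHL41 were the 2 called without the 24-month replicate 3. Between 12 and 24 months 23 were tested and none was called by edgeR, and 2 had an unadjusted p under 0.05. These genes are named because they were called, and so were chosen after their values were seen.

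The called genes did not share one profile over the libraries. The neonatal and embryonic heavy chains MYH8 and MYH3 had 7.78, 36.4 and 27.8 counts and 23.6, 59.3 and 19.7 counts in the kids, and at most 8.04 counts in any older goat. MYH7 had 19.9, 40.0 and 9.02 counts in the kids and 157 in the 12-month replicate 2. MYBPC2, a fast myosin binding protein, had 401, 2061 and 261 counts in the kids, and from 0.820 to 32.8 at 12 months. Its highest library was the 1-month replicate 2, which also had the highest thymus sum, and ACTN3, the fast alpha-actinin, was highest in that library too (186 counts, against 34.8 and 18.0).

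Genes higher in the older goats differed from this. KLHL41, a regulator of sarcomere assembly, had CPM of 1.52, 0.317 and 0.834 at 1 month, 2.51, 9.56 and 2.14 at 12 months, and 151, 40.0 and 2.12 at 24 months, with a log2 fold change of 6.29 at 24 months against 1 month (SE 1.41, edgeR adjusted p = 0.0212). With 1 library left out the adjusted p ran from 0.0217 to 0.0595, and the call was lost without the 1-month replicate 3 or the 24-month replicate 1 or 2. The 24-month replicate 3 was far below the other 24-month libraries. CHRNE, the epsilon subunit of the adult muscle acetylcholine receptor, had CPM of 2.81, 0.599 and 1.83 at 1 month, 5.52, 9.62 and 10.1 at 12 months, and 10.1, 12.0 and 18.8 at 24 months (log2 fold change 3.10 at 24 months against 1 month, SE 0.637, adjusted p = 0.0164). Its adjusted p ran from 0.00546 to 0.0759, and the call was lost without the 24-month replicate 2 or 3. Over all ages both genes were highest at 24 months. Within its age, KLHL41 was highest in the 1-month replicate 1 and in the 12-month replicate 2, as the filament genes were, and CHRNE in the 1-month replicate 1.

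The 12-month replicate 2 and the 1-month replicate 1 were then set side by side for the 14 muscle genes that had at least 10 counts in both and at most 10 in every other adult library. The ratio of CPM, 12-month to 1-month goat, had a median of 1.87. Its 95% interval from the exact binomial split of the counts lay above 1 for 8 genes and spanned 1 for 6. Among the members the ratio was 1.13 (0.905 to 1.42) for MYH1, 2.17 (1.37 to 3.52) for MYLPF, 2.50 (2.14 to 2.94) for MYH2 and 2.62 (1.33 to 5.53) for TNNT3. The lowest ratio was 0.673 (0.392 to 1.15) for ACTN3. The highest were 6.85 (4.29 to 11.5) for MYH7 and 12.6 (7.45 to 22.9) for XIRP2, a protein of muscle attachment sites. The intervals hold counting error only, not the spread between goats or the uncertain split of reads between the myosins, and they compare 2 libraries and not the ages.

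**Figure D5:**
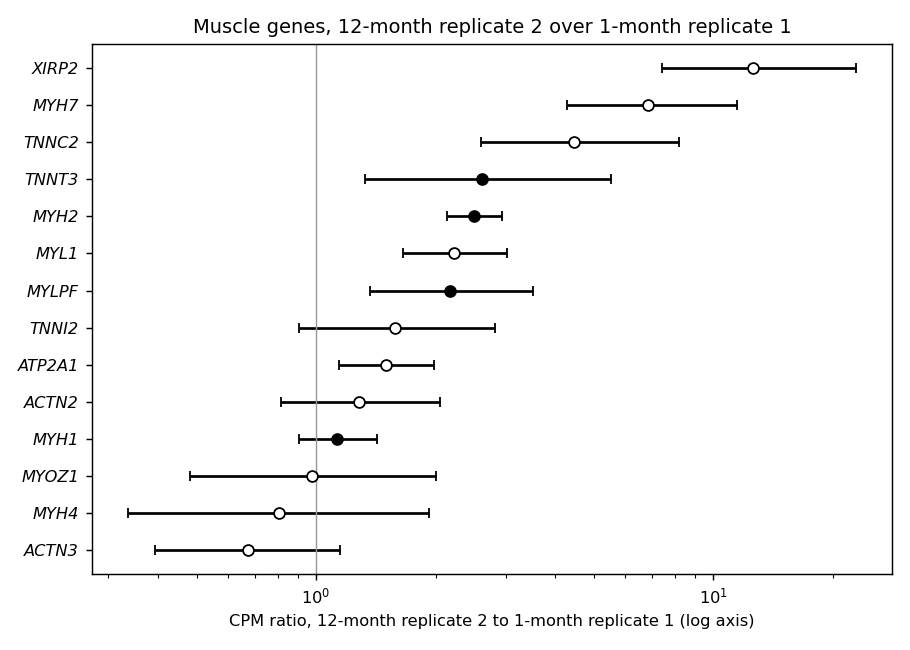
Ratio of CPM in the 12-month replicate 2 to the 1-month replicate 1 on a log axis for 14 muscle genes, with 95% intervals from the counts; filled points are members and open points other muscle genes, and the grey line marks a ratio of 1. The ratios run from 0.673 for ACTN3 to 12.6 for XIRP2.

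The members moved together to different degrees over the 9 libraries. Pearson's r of log2(CPM + 1) was 0.99 for MYH1 with MYH2, 0.94 for ACTA1 with MYH2 and 0.93 for MYLPF with TTN. It was 0.46 for MYH2 with NEB, 0.40 for MYH2 with MB and -0.02 for TTN with MB. These are descriptions over 9 libraries that share the pair of high libraries, and no p is given. Outside all lists, the 10 genes most like the summed CPM of the members on that scale, out of 15210, were ARMT1 (r = 0.958), CMYA5 (0.945), PPIL4, PPIL3, DEUP1, SCAPER, NEK1, KLHL31, CCDC112 and NCL (0.903). TTN and NEB made up most of that sum in every library, so the ranking mainly follows these 2 genes. Members in the filter had r with the sum from 0.582 for CKM to 0.911 for TTN, except MB at 0.037. ARMT1 had CPM of 8.69, 6.38 and 6.62 at 1 month, 5.81, 10.1 and 5.24 at 12 months, and 6.39, 3.39 and 3.20 at 24 months. CMYA5, a protein of striated muscle, had CPM of 8.28, 3.88 and 8.59 at 1 month, 3.63, 9.73 and 3.67 at 12 months, and 3.20, 0.735 and 1.96 at 24 months.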

How the data were processed

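The authors sequenced libraries of 9 glands, rRNA-depleted per the labels, filtered the reads, removed remaining ribosomal reads with Bowtie2 2.2.8, aligned the rest with TopHat2 2.1.1, assembled transcripts with Cufflinks and deposited expected counts per transcript from RSEM (52739 transcripts, 10053 of them new, neither depth- nor length-normalized). The genome build is not given in the sources used here. Here, transcripts were summed to 21684 genes by symbol; 9 listed genes were matched by product. Each pair of ages was compared on rounded counts with edgeR 4.0.16 (R 4.3.3): filterByExpr, TMM, glmQLFit, glmQLFTest, Benjamini-Hochberg adjustment. Standard errors were derived from each fold change and the F statistic of its test. The study's FPKM criterion was not applied, since the table holds counts. DESeq2 1.42.0 and other settings were alternatives; permutation tests used scipy 1.17.1. The fit was tested on simulated data. The members and lists were chosen with earlier results of these data known. Named by rule were the members, up to 4 genes of each list with the highest mean CPM, and the 10 genes most like the members' sum; other genes were named after their values were seen. With 3 goats per age, the edgeR p-values set the difference between ages against the spread between goats, estimated with dispersions moderated across genes.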

Additional observations from a re-analysis of the deposited data

How the results depend on the processing

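Of 232 alternative values of single members, 208 kept direction and call, 22 reversed direction and 1 lost a call. The 208 include Wald fits of CKM and TTN that kept direction but gave no adjusted p, so that no call was possible. A call was gained by 2, NEB with its direction kept and TTN among the reversed. Where not stated, the cause was not tested. Between 12 and 1 months, 1744 genes were called, against 829 with single transcripts, 902 with the replicate block and from 0 to 1908 with libraries left out (0, 64 and 125 without the 12-month replicates 1, 2 and 3). Between 24 and 1 months, 2009 were called, against 453 with single transcripts and from 312 to 2172 with libraries left out (554 and 312 without the 24-month replicates 2 and 3). Between 24 and 12 months, 0 were called, against 13 (Wald test), 16 (exact test), 2 (no filter), 7 (replicate block) and from 0 to 172 with libraries left out (172 without the 24-month replicate 1). Leaving out 2 libraries at once was chosen after seeing the data. Members called in the first comparison were 1 (TTN) without the 1-month replicate 2 and the 12-month replicate 2. In the second they were 3 without a filter (MYH1, MYH2 and TTN, since more genes were tested) and from 0 to 2 with libraries left out (MYH2 and TTN without the 1-month replicate 2, none without the 24-month replicate 3, where TTN had -4.46 at an edgeR adjusted p of 0.0557). In the third they were from 0 to 1 (NEB at -2.20 without the 24-month replicate 1). The other muscle lists had 4 calls in the first comparison, against 8 (Wald test), 7 (exact test), 0 (single transcripts), 1 (replicate block), and from 0 to 8 with libraries left out (8 without the 1-month replicate 2 and the 12-month replicate 2). In the second they had 10, against 1 (single transcripts) and from 1 to 10 with libraries left out (1 and 2 without the 24-month replicates 2 and 3, 5 without the 1-month replicates 1 and 2). Reversed log2 fold changes at 12 against 1 month were, under the replicate block, -0.17 for ACTA1, 1.58 for CKM, -2.28 for MYLPF and -2.60 for TTN, and -0.54 for NEB with known transcripts only. With libraries left out the values there ran from -3.20 to 2.45 for ACTA1, from -3.37 to 3.76 for CKM, from -7.18 to 0.88 for MYLPF, from -4.49 to 1.06 for TTN, from -0.13 to 0.31 for NEB and from -0.50 to 1.65 for MB; the lowest values came without the 12-month replicate 2 for ACTA1, MYLPF and, with the 1-month replicate 2 left out too, for TTN, NEB and MB. At 24 against 1 month, CKM reversed to 0.90 under the replicate block and ran from -2.37 to 3.28 with libraries left out, and ACTA1 ran from -2.85 to 0.88. At 24 against 12 months CKM ran from -1.71 to 0.97. The ratio of mean summed CPM of the members was 1.15, 0.228 and 0.198 in the 3 comparisons, and the first fell below 1 without the 12-month replicate 2 (0.519) or the 1-month replicate 2 (0.947), with library totals in place of TMM (0.796) and by medians (0.733). Same-numbered libraries are different goats and correlated by -0.12, -0.119 and -0.108 at 12 against 1 month, by 0.42, 0.196 and -0.234 at 24 against 1 month, and by -0.081, -0.124 and 0.003 at 24 against 12 months, and 0, 1 and 0 of 3 libraries correlated best with their own number, so the numbers were not used as a block. Library totals would shift every log2 fold change by -0.42, -0.58 and -0.16 in the 3 comparisons. Counts under 3 per library limit MYH1, MYH2 and MYLPF in most of the older goats, and TNNT3 was close to that floor in most of them.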

Other observations

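Genes that stood apart in 1 adult library were also counted. The count uses the same values that singled out the 12-month replicate 2 above, so it is a description and no separate support. Genes with at least 50 counts in 1 adult library and at least 10-fold its CPM in each other adult library numbered 16 in the 12-month replicate 2 and from 3 to 8 in the other adult libraries. Of the 16, 11 were on the muscle lists (TTN, MYH2, ACTA1, XIRP2, MYH1, MYL1, MYH7, ATP2A1, TNNC2, MYLPF and MYL2), and the other libraries had none from these lists. The remaining genes of the 16 were CPE, LARGE, COX10, LOC102179192 and LOC102176008. This threshold was chosen after the data were examined. CPE, which encodes carboxypeptidase E, a processing enzyme of peptide hormones, had 1123 counts there, at most 103 in another adult library, and 87.8, 19.6 and 117 in the 1-month libraries. LOC102179192 had 134 counts in the 12-month replicate 2 and 0 in all other libraries.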
